A study of Mus musculus with 6 samples.

Results

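The 9 genes described here encode the enzymes that remove fatty acids from stored triglyceride and the proteins that switch those enzymes on or off. They were chosen by name, with earlier results of these data known. All 9 were found among the 54532 genes of the deposited count table. Expression was measured by RNA-seq in the epididymal depot of white fat (eWAT) of cachectic and control mice, with 3 libraries in each group. All mice were male C57BL/6, obtained at 6 to 10 weeks of age according to the methods. According to the same source, cachexia followed subcutaneous inoculation of LLC cells, a line from a murine lung carcinoma, and was defined by a body weight loss of more than 20%, with tissue taken on day 21. The labels describe the other group only as control, and number the libraries as separate samples, but no source used here says that each came from a different mouse.

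Fat cells keep triglyceride in lipid droplets and break it down in steps. Adipose triglyceride lipase (ATGL, gene Pnpla2) takes off the first fatty acid, hormone-sensitive lipase (HSL, gene Lipe) acts mainly on the diglyceride that is left, and monoglyceride lipase (gene Mgll) completes the reaction. ABHD5, also called CGI-58, is the coactivator of ATGL, whereas G0S2 and HILPDA bind ATGL and inhibit it. PNPLA3 is a close relative of ATGL that sits on lipid droplets and is known as a gene of the fed, lipogenic state. CES1D and CES1F are carboxylesterases with triglyceride hydrolase activity, best known from liver and also present in adipocytes. Wasting of white fat in cachexia raised the question of how the genes of this machinery were expressed.

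In cachectic eWAT the gene for ATGL was higher, and the genes for its inhibitor G0S2 and for its relative PNPLA3 were lower. Pnpla2 rose 2.11-fold, G0s2 fell 6.06-fold and Pnpla3 fell 13.7-fold. The other 6 members did not pass the threshold, which was an adjusted p-value of 0.05 from edgeR's quasi-likelihood test with Benjamini-Hochberg adjustment over all 16003 genes tested. All 9 members had enough counts to be tested. Of the 9, 1 was called higher and 2 were called lower, together 33.3%, beside 17.6% of all genes tested (9% higher and 8.63% lower). The groups did not overlap in 4 members, while this was so for 40.5% of all genes tested. The median log2 fold change of the members was -0.08, beside -0.00 for all genes tested. In bulk tissue, fewer cells of a type and less RNA per cell cannot be told apart.

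**Figure D1:**
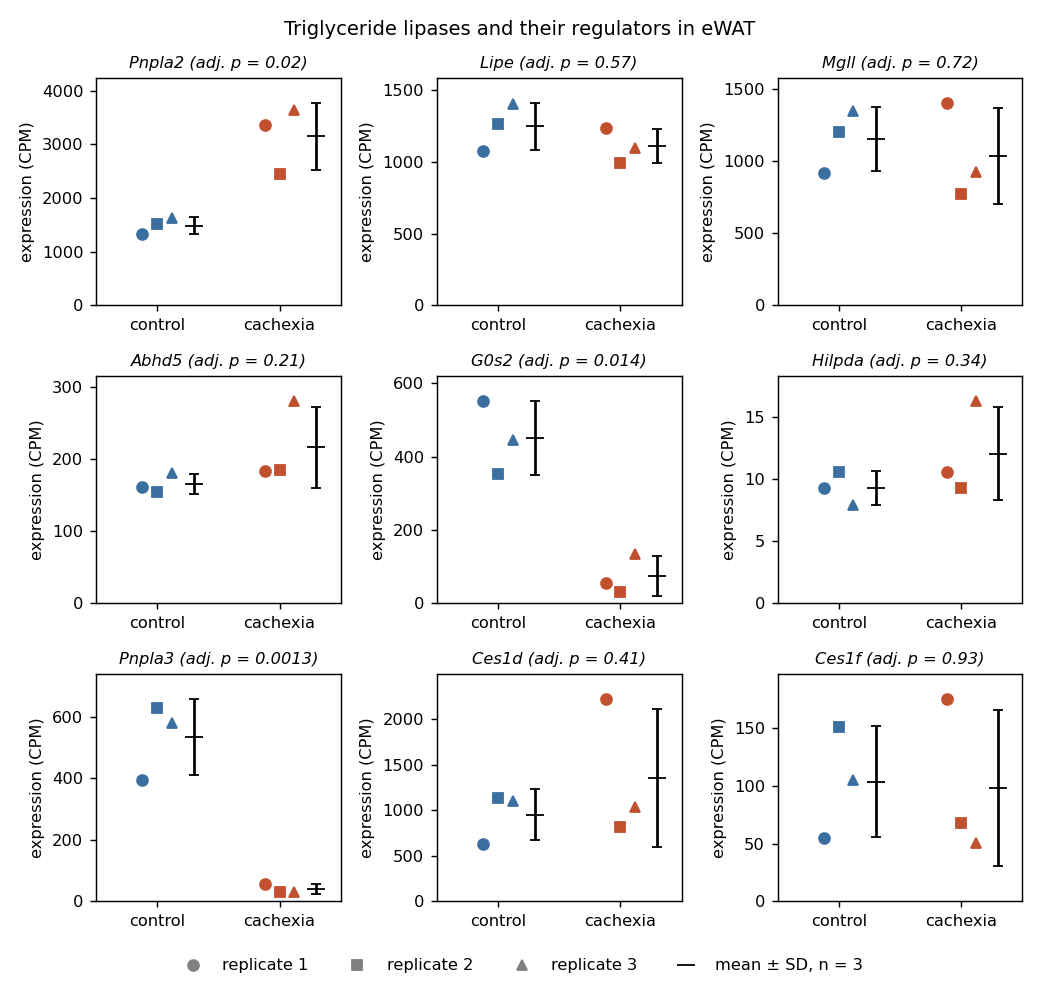
Expression (vertical axis, CPM, starting at 0) of each of the 9 members in 3 control (blue) and 3 cachectic (red) libraries. Each symbol is 1 library, black bars give the mean ± SD, and adjusted p-values are from edgeR. The groups are apart in the panels for Pnpla2, G0s2 and Pnpla3, and by a narrow gap in that for Abhd5.

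Total counts lay between 14928766 and 18855546 per library, and every cachectic library had fewer than every control library. Counts were scaled with edgeR's TMM factors and are given as CPM, counts relative to the scaled library size. The biological coefficient of variation was 0.264. Adipocyte markers were present in every library, and their summed level was 54220 to 81290 CPM in controls and 44960 to 74780 CPM in cachectic libraries. Of the 15 adipocyte markers, 2 were higher and 1 was lower, with a median log2 fold change of -0.00. Markers of some other cell types differed between the groups. The 12 neutrophil markers summed to 32.6 to 50.03 CPM in controls and 264 to 770 CPM in cachectic libraries, with 10 of the 11 tested higher. The 10 endothelial markers summed to 1786 to 1905 and 2892 to 3865 CPM, with 6 higher. The 10 markers of progenitors summed to 5512 to 6322 and 2607 to 3571 CPM, with 4 lower, 1 higher and 5 not called. The largest drops in CPM were those of the collagen genes Col3a1 (means of 2475 and 272 CPM) and Col1a1 (632 and 104 CPM). Dcn, which was not called, had means of 2058 and 1976 CPM. Erythroid markers (7 genes) summed to 252.5 to 450.8 and 1334 to 2856 CPM, with all 6 tested higher. The part of these cells in the results on the lipases was not tested. Among 12 macrophage markers 1 was higher and 2 were lower, and none of the 9 mesothelial markers passed edgeR's threshold. Of 8 muscle markers, 4 were tested and 1 was lower. Control replicate 1 stood apart from the other controls on the second principal component of log2 CPM, at 47.2 against -28.8 and -23.3. Epididymis and testis markers summed to 32.3 CPM in this library, mainly Prm2 (16.3 CPM) and Prm1 (10.5 CPM), while each was at most 0.933 CPM in any other library. Without it, the log2 fold change was 1.00 for Pnpla2 (adjusted p = 0.0491 from edgeR), -2.43 for G0s2 (adjusted p = 0.03145 from edgeR) and -3.95 for Pnpla3 (adjusted p = 0.002595 from edgeR). Of 9 liver markers 6 were tested, 1 of them higher and 1 lower.

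Pnpla2 (ENSMUSG00000025509) lies on the plus strand of chromosome 7 from 141455198 to 141460743. All positions are those in the deposited files, which match GRCm38. The 3 control libraries, in the order of their replicate numbers, had 1326, 1511 and 1628 CPM, and the 3 cachexia libraries had 3353, 2445 and 3643 CPM. This order is kept for all values given by library. Every cachectic library was above every control library, and the lowest was cachexia replicate 2. The mean was 1488 ± 152 (SD, n = 3) CPM in controls and 3147 ± 625 (SD, n = 3) CPM. The log2 fold change was 1.08 with a standard error of 0.23 and a 95% interval of 0.54 to 1.62 (adjusted p = 0.0197 from edgeR). The two-sided exact permutation test gave p = 0.1, the smallest value that 3 libraries against 3 allow. The call depended on single libraries. The adjusted p-value from edgeR was 0.0766 without control replicate 2, 0.0789 without control replicate 3 and 0.0514 without cachexia replicate 1, while the log2 fold change stayed at 1.09, 1.15 and 1.03. No stretch of 50 bases in the reference transcripts of Pnpla2 occurs in transcripts of another gene, and no annotated gene overlaps it.

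Pnpla3 (ENSMUSG00000041653), on the plus strand of chromosome 15 from 84167837 to 84187236, showed the largest change among the members. The control libraries had 394, 629 and 580 CPM, and the cachectic libraries had 57.6, 30.6 and 29.2 CPM. The highest cachectic value was far below the lowest control value. The mean was 535 ± 124 (SD, n = 3) CPM in controls and 39.2 ± 16.0 (SD, n = 3) CPM in cachexia, and the log2 fold change was -3.77 with a standard error of 0.34 and an interval of -4.55 to -3.00 (adjusted p = 0.00133 from edgeR). Among all genes tested, 61 had a more negative log2 fold change and 47 had a smaller p-value. The call was kept in each of the 15 other settings tried, with adjusted p-values of at most 0.00979. Features annotated within the locus had low counts that were also smaller in cachectic libraries. Mir6392, which lies on the same strand, had 115, 122 and 135 counts in controls and 5, 11 and 1 in cachectic libraries. Gm20369, on the other strand, had 19, 14 and 19 counts in controls and 0, 1 and 1 in cachectic libraries. Of the stretches of 50 bases in Pnpla3 transcripts, 4.51% are shared with Gm49513, which had at most 3 counts in any library.

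Because these 2 relatives changed in opposite directions, the sequence before each start site is shown in GRCm38 (RefSeq start sites), 5′ to 3′ on the gene's strand. Capitals mark the GC box, spelled GGGCGG, the cAMP response element, spelled TGACGTCA, and the motif CCAAT, each searched on both strands, so that a match may read as its reverse complement.
Pnpla2, chr7:141454938-141455187, plus strand: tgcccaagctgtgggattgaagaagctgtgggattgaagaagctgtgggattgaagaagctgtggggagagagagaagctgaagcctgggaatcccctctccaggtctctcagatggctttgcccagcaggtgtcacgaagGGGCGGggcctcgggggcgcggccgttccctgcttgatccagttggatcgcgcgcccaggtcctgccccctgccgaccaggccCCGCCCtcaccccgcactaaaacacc
Pnpla3, chr15:84167566-84167815, plus strand: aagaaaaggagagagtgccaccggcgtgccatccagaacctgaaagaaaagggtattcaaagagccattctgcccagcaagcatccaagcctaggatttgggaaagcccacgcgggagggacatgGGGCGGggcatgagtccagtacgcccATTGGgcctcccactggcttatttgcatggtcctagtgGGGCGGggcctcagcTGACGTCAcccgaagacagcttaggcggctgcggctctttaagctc

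Both windows hold 2 GC boxes, a motif found in 32.7% of the 32851 windows of 250 bases in the promoter table. The window of Pnpla3 also holds a CCAAT box, found in 33.8% of windows, and a cAMP response element, found in 1.55%. The E-box (CACGTG, 6.02% of windows), the nuclear receptor half-site (AGGTCA, 14% of windows), the forkhead element (TGTTTAC, 3.17% of windows) and the sterol regulatory element (TCACNCCAC, 1.05% of windows) were searched as well and are not in either window. A match describes the letters in the window and no more. The table held windows for 7 of the 9 members.

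G0s2 (ENSMUSG00000009633), on the minus strand of chromosome 1 from 193272161 to 193273217, encodes the small inhibitor of ATGL. The control libraries had 552, 352 and 445.5 CPM, and the cachectic libraries had 55.8, 31.0 and 136 CPM. The groups did not overlap, and cachexia replicate 3 was highest among the cachectic libraries. The mean was 449.9 ± 100.2 (SD, n = 3) CPM in controls and 74.2 ± 54.8 (SD, n = 3) CPM, and the log2 fold change was -2.60 with a standard error of 0.50 and an interval of -3.77 to -1.43 (adjusted p = 0.0139 from edgeR). The relative spread between cachectic libraries was 73.9% of their mean, against 22.3% in controls. The call was kept in each of the 15 other settings, with adjusted p-values of at most 0.0498. G0s2 lies within Lamb3, which is on the other strand and had 80 to 148 counts per library. No stretch of 50 bases in its transcript is shared with another gene.

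Hilpda (ENSMUSG00000043421), on chromosome 6 from 29272488 to 29275446, encodes the hypoxia-inducible inhibitor of ATGL and was expressed at a low level. It had 9.33, 10.6 and 7.93 CPM in controls and 10.6, 9.27 and 16.3 CPM in cachectic libraries. The groups overlapped, and only cachexia replicate 3 lay above the other libraries. Its log2 fold change was 0.38 with a standard error of 0.26 and an interval of -0.21 to 0.97 (adjusted p = 0.337 from edgeR). The 2 inhibitors of ATGL thus had log2 fold changes of opposite sign, of which only that of G0s2 passed the threshold.

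Abhd5 (ENSMUSG00000032540), the coactivator gene on chromosome 9 from 122351608 to 122381524, had 161, 154 and 181 CPM in controls and 183, 184.5 and 281 CPM in cachectic libraries. All cachectic values were above all control values, but 2 of them by little. The log2 fold change was 0.39 with a standard error of 0.20 and an interval of -0.07 to 0.84 (adjusted p = 0.208 from edgeR), so the difference was not larger than the spread allowed for. It shares 27.7% of its stretches of 50 bases with A730085K08Rik, a gene on the other strand with at most 12 counts per library. Whether strand was used in counting is not given in the sources used here.

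The enzymes of the later steps did not pass the threshold. Lipe (ENSMUSG00000003123), on the minus strand of chromosome 7 from 25379527 to 25398710, had 1078, 1264 and 1404 CPM in controls and 1233, 994.5 and 1098 CPM in cachectic libraries. The values overlapped, and the log2 fold change was -0.17 with an interval of -0.62 to 0.27 (adjusted p = 0.572 from edgeR). In fold terms the interval runs from 0.652 to 1.21, which does not reach the fold change of 2.11 fitted for Pnpla2. Lipe shares 10.2% of its stretches of 50 bases with 4732471J01Rik on the other strand, which had at most 149 counts. Mgll (ENSMUSG00000033174), on chromosome 6 from 88724412 to 88828360, had 913, 1197 and 1346 CPM in controls and 1402, 769.6 and 926 CPM in cachectic libraries. The highest value of all belonged to cachexia replicate 1 and the lowest to cachexia replicate 2. Its log2 fold change was -0.16 with an interval of -0.79 to 0.47 (adjusted p = 0.723 from edgeR). Several small annotated genes overlap Mgll, each with at most 110 counts.

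The study's list of qPCR primers holds assays for both lipases, which read exons of these genes. The paper reports qPCR of lipolytic genes in fat of mice given a lentivirus that expresses the protein LCN2 or a control lentivirus. That is another comparison than the cachexia counts given above. The sequences come from the study's list of primers and are printed 5′ to 3′.
Atgl forward: cagcacatttatcccggtgtac
Atgl reverse: aaatgccgccatccacatag
Hsl forward: gctggaggagtgtttttttgc
Hsl reverse: agttgaaccaagcaggtcaca
The Atgl pair matched exon 3 (chr7:141457603-141457624) and exon 4 (chr7:141458007-141458026) of Pnpla2, with a product of 77 bases in the spliced transcript. The forward Hsl primer matched exon 6 of Lipe (chr7:25384408-25384428), the reverse primer lay across the junction of exons 6 and 7, and the product was 64 bases. In another protein-coding reference transcript of Lipe these were exons 5 and 6, and in others neither primer matched. A further Pnpla2 transcript lacked the match of the reverse Atgl primer. The qPCR values were not analysed here.

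Both carboxylesterases varied widely within each group. Ces1d (ENSMUSG00000056973), on the minus strand of chromosome 8 from 93166068 to 93197838, had 626, 1132 and 1105 CPM in controls and 2227, 822 and 1032 CPM in cachectic libraries. Cachexia replicate 1 stood above all other libraries, and the other cachectic libraries lay within the range of the controls. The log2 fold change was 0.51 with a standard error of 0.41 and an interval of -0.43 to 1.45 (adjusted p = 0.414 from edgeR), and it was -0.04 without cachexia replicate 1. Ces1f (ENSMUSG00000031725), its neighbour from 93256236 to 93279747, had 54.7, 151 and 105 CPM in controls and 175, 68.2 and 50.6 CPM in cachectic libraries. Cachexia replicate 1 was again the highest library, and the relative spread was 46.5% in controls and 68.9% in cachectic libraries. Its log2 fold change was -0.08 with an interval of -1.25 to 1.09 (adjusted p = 0.931 from edgeR), so that, as a fold change, the interval ran from 0.422 to 2.13. Transcripts of the 2 genes are distinct enough that only 0.205% of the stretches of 50 bases in Ces1d occur in Ces1f. Of 18 further carboxylesterase genes, 6 had no count in any library, and only Ces2g passed the filter on low counts. Ces2g was lower in cachectic libraries, with 16.4 ± 4.31 (SD, n = 3) CPM in controls against 7.26 ± 1.46 (SD, n = 3) CPM, and its log2 fold change was -1.18 (adjusted p = 0.0195 from edgeR).

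**Figure D2:**
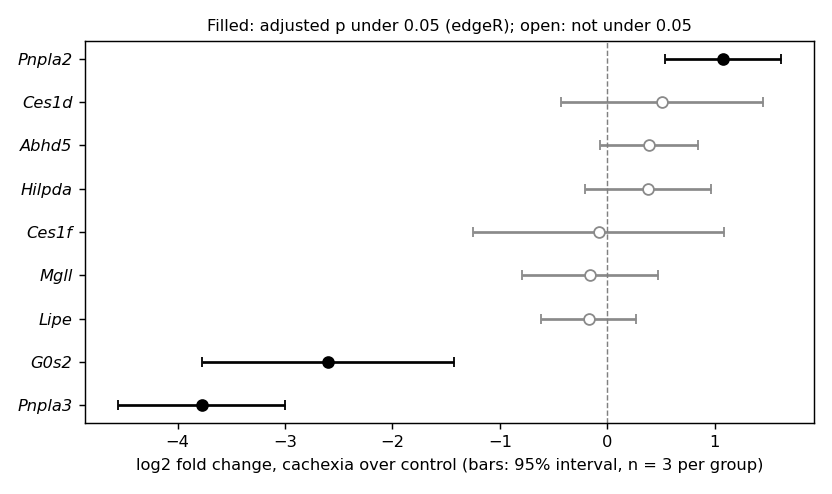
Log2 fold change of cachexia over control (horizontal axis) for each member, with the 95% interval from edgeR and n = 3 per group. Filled points passed an adjusted p-value of 0.05, with Pnpla2 at 1.08, G0s2 at -2.60 and Pnpla3 at -3.77, and the intervals of the 6 open points include 0.

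Levels can be compared between genes only per length, so CPM were divided by the deposited gene length in kilobases. For Abhd5 this length was 5956 bases, while its protein-coding reference transcripts held 3257 different stretches of 50 bases. For G0s2 the values were 871 and 822, so the order of the members may depend on the length used. In control libraries G0s2 stood first with 516.5 ± 115 (SD, n = 3) CPM per kilobase, followed by Pnpla2 with 493 ± 50.4 (SD, n = 3), Ces1d with 403 ± 120 (SD, n = 3) and Pnpla3 with 345 ± 80.2 (SD, n = 3). The values of each neighbouring pair in this order overlapped between libraries, and so did those of Mgll (227 CPM per kilobase) and Lipe (212 CPM per kilobase). Ces1f, Abhd5 and Hilpda followed with means of 31.5, 27.8 and 8.42 CPM per kilobase. In cachectic libraries Pnpla2 stood first with 1042 ± 207 (SD, n = 3) CPM per kilobase. Ces1d (574 ± 320, SD, n = 3) came next and overlapped it, then Mgll (203 CPM per kilobase) and Lipe (188 CPM per kilobase), which overlapped each other. G0s2 had dropped to 85.2 ± 63.0 (SD, n = 3) and Pnpla3 to 25.3 ± 10.3 (SD, n = 3) CPM per kilobase. G0s2, Abhd5, Ces1f and Pnpla3 overlapped from neighbour to neighbour, and Hilpda stayed last. Among the 13724 protein-coding genes tested, the level per length of Pnpla3 moved from rank 84 in controls to rank 1874 in cachectic libraries, that of G0s2 from rank 49 to rank 461, and that of Pnpla2 from rank 54 to rank 27.

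Ratios between members within a library do not depend on how the libraries are scaled. The ratio of G0s2 to Pnpla2, both as counts per kilobase, was 1.44, 0.808 and 0.949 in the control libraries and 0.0577, 0.0440 and 0.129 in the cachectic libraries. The transcript of the inhibitor was thus about as abundant as that of the lipase in control libraries, and well below it in every cachectic library. The difference was 14.99-fold, or -3.91 on the log2 scale with a standard error of 0.53. The ratio of Pnpla3 to Pnpla2 was 0.580, 0.813 and 0.696 in controls and 0.0335, 0.0244 and 0.0157 in cachectic libraries, a difference of -4.88 on the log2 scale (standard error 0.35). The ratio of Lipe to Pnpla2 was 0.417, 0.4295 and 0.442 in controls and 0.189, 0.209 and 0.155 in cachectic libraries. It varied little between control libraries, with an SD of 0.04 on the log2 scale, and was lower by 2.35-fold in cachectic libraries. The ratio of Abhd5 to Pnpla2 was 0.0616, 0.0516 and 0.0564 in controls and 0.0277, 0.0383 and 0.0391 in cachectic libraries, a difference of -0.70 on the log2 scale. That of Hilpda to Pnpla2 differed by -0.72 on the log2 scale. The groups did not overlap in any of these 5 ratios, nor in that of Ces1f to Ces1d (-0.60 on the log2 scale). Each of the 6 had p = 0.1 in the two-sided exact permutation test, the smallest possible, and 0.133 after Benjamini-Hochberg adjustment over the 8 ratios compared. These ratios with Pnpla2 share its rise. The ratio of Ces1d to Pnpla2 overlapped between groups (-0.64 on the log2 scale, exact permutation p = 0.2). The ratio of Mgll to Lipe was 0.981, 1.10 and 1.11 in controls and 1.32, 0.897 and 0.978 in cachectic libraries, a difference of -0.02 on the log2 scale with a standard error of 0.18 (exact permutation p = 0.9).

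**Figure D3:**
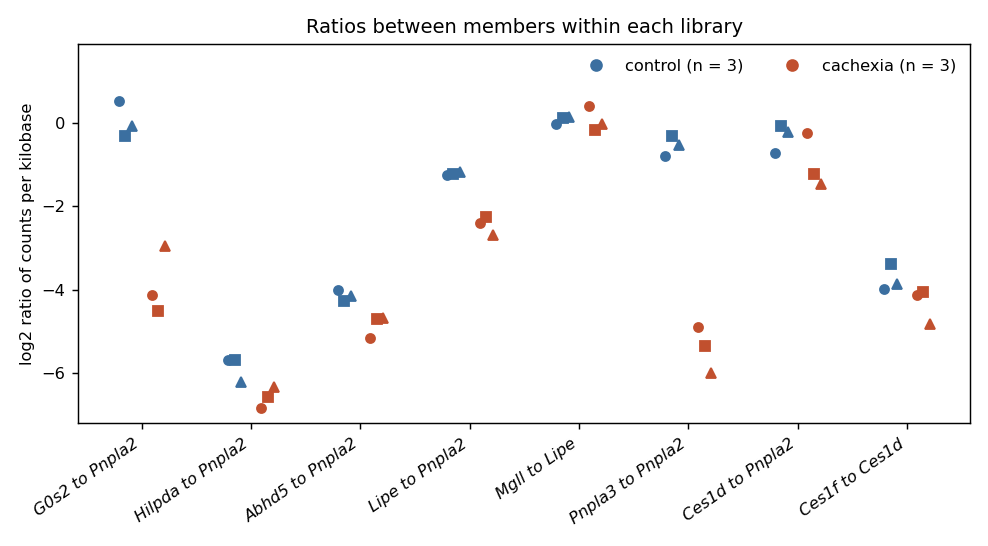
Log2 ratio of counts per kilobase (vertical axis) for 8 pairs of members in each of 3 control (blue) and 3 cachectic (red) libraries, with a symbol shape for each replicate number. The largest gaps between groups are those of Pnpla3 to Pnpla2 (-4.88) and G0s2 to Pnpla2 (-3.91), and the groups overlap for Mgll to Lipe and Ces1d to Pnpla2.

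The members were also set against the 15 adipocyte markers in the same library. The mean log2 CPM of these markers was 10.75, 11.16 and 11.27 in controls and 11.16, 10.32 and 10.85 in cachectic libraries. Relative to it, Pnpla2 was at -0.38, -0.59 and -0.60 in controls and at 0.55, 0.94 and 0.98 in cachectic libraries, a difference of 1.35 on the log2 scale. G0s2 differed by -2.55 and Pnpla3 by -3.51 on the same scale. Lipe and Mgll kept a similar distance to the markers in both groups, with differences of 0.11 and 0.10. Among the markers, Pck1 (log2 fold change 2.35) and Cidec (0.87) were called higher and Lep (-3.14) lower, and 12 were not called. With Adipoq alone as the reference, the difference of Pnpla2 was 0.62 and those of Lipe and Mgll were -0.61 and -0.63. Adipoq itself had 1899 ± 249.5 (SD, n = 3) CPM in controls and 2762 ± 1288 (SD, n = 3) CPM in cachectic libraries, and did not pass the threshold (adjusted p = 0.305 from edgeR). These differences are given as a description without a test.

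The signals that reach the lipases were covered by a list of 36 genes for receptors, the cAMP pathway and droplet proteins, all of them tested. Of these, 4 were higher and 3 were lower, together 7 of 36, which is near the 17.6% called among all genes tested. The median log2 fold change was 0.05. The adenylyl cyclase gene Adcy4 rose with a log2 fold change of 1.69 (adjusted p = 0.000878 from edgeR). Adra2a, which encodes an antilipolytic adrenergic receptor, fell by 1.60 on the log2 scale, from a low level of 5.42 CPM in controls. Cav1, which encodes the caveolae protein caveolin, fell from a control mean of 3528 ± 411 (SD, n = 3) CPM to a mean of 974 ± 281.5 (SD, n = 3) CPM, and its log2 fold change was -1.86. Named after their values were seen, Insr (1.19) and Cidec (0.87) rose, and Npr3 (-2.43), the clearance receptor for natriuretic peptides, fell. Adrb3, the gene of the main beta-adrenergic receptor of rodent adipocytes and named after its value was seen, had a log2 fold change of -0.08 (adjusted p = 0.902 from edgeR). Plin1, whose product holds ABHD5 away from ATGL in the resting cell, was also named after its value was seen. It had 1492, 2328 and 2401 CPM in controls and 1281, 634 and 385 CPM in cachectic libraries, a log2 fold change of -1.44 (adjusted p = 0.0570 from edgeR). Its values did not overlap, and the change did not pass the threshold.

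Of the 16 genes of triglyceride synthesis, 2 were higher and 6 were lower, beside 17.6% called among all genes tested. Their median log2 fold change was -0.20. Dgat2, which encodes an enzyme of the last step of synthesis, had 2091, 2839 and 2882 CPM in controls and 202, 224 and 63.7 CPM in cachectic libraries. The log2 fold change of Dgat2 was -4.00 with a standard error of 0.48, and its adjusted p-value from edgeR was 0.00315. Mogat1, another acyltransferase gene, fell by 1.85 on the log2 scale. Agpat2 (-1.99), Gpat3 (-1.60), Mogat2 (-3.68) and Gpd1 (-1.08) fell as well and were named after their values were seen. Pck1, an enzyme of glyceroneogenesis, rose from a control mean of 630.1 ± 294 (SD, n = 3) CPM to a mean of 3214 ± 1375 (SD, n = 3) CPM, and Lpin1 rose with a log2 fold change of 1.11. Dgat1, named after its value was seen, had a log2 fold change of 0.38 (adjusted p = 0.260 from edgeR).

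Among 23 transcription factors known for an action on genes of lipases or their regulators, 5 were higher and 1 was lower. Over all genes tested 17.6% were called. The median log2 fold change of these factors was 0.26. Irf4, a factor described as an activator of lipase genes in fasted fat, had 8.68, 17.8 and 11.9 CPM in controls and 277, 152.5 and 352 CPM in cachectic libraries. The groups were far apart, and the log2 fold change was 4.35 with a standard error of 0.39 (edgeR adjusted p = 0.00134). Irf4 is also known from immune cells. Srebf1, the gene of a lipogenic factor, had 514, 579 and 602 CPM in controls and 143.5, 264 and 83.8 CPM in cachectic libraries, a log2 fold change of -1.79 (adjusted p = 0.0188 from edgeR). Stat3 rose with a log2 fold change of 1.06, and Foxo3 (0.75), Epas1 (0.71) and Arnt (0.64), named after their values were seen, also rose. Pparg (-0.28, adjusted p = 0.425 from edgeR) and Foxo1 (-0.21, adjusted p = 0.422 from edgeR), the latter named after its value was seen, did not pass the threshold.

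Of 31 other genes of neutral lipid hydrolases and their families, 27 were tested, 2 of them higher and 4 lower. Over all genes tested 17.6% were called. The median log2 fold change of the 27 was -0.10. Pnpla7, a lysophospholipase gene of the same family as Pnpla2, had 20.3, 22.6 and 21.7 CPM in controls and 77.2, 94.95 and 181 CPM in cachectic libraries. All cachectic values lay above the controls, and the log2 fold change was 2.45 with a standard error of 0.31 (edgeR adjusted p = 0.00355). Abhd4 rose with a log2 fold change of 0.64, and Abhd11 and Abhd17c fell by 0.65 and 0.62 on the log2 scale. Abhd17b (-0.59) and Abhd14a (-0.68), named after their values were seen, fell as well.

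**Figure D4:**
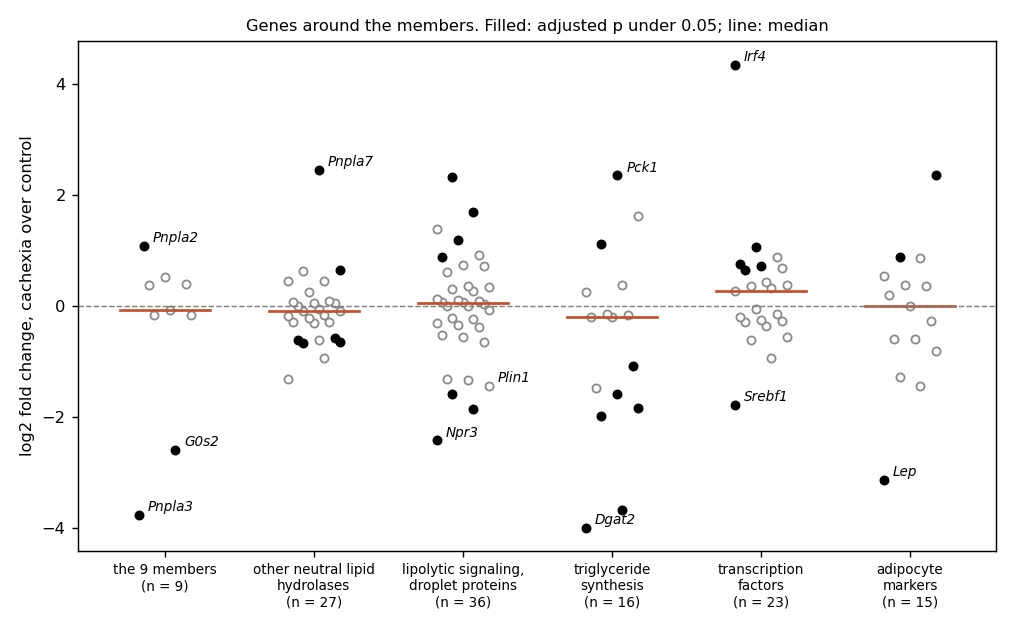
Log2 fold change of cachexia over control (vertical axis) for the tested genes of 6 lists, with n genes below each name. Filled points passed an adjusted p-value of 0.05 in edgeR's test, and red lines mark the medians, which lie between -0.20 and 0.26. Pnpla3 (-3.77) and Dgat2 (-4.00) are the lowest points of their lists.

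The genes most like a member in pattern were found by Pearson's r of log2 CPM over the 6 libraries, among 13723 other protein-coding genes. For Pnpla2 they included Ctnna1 (r = 0.998) and Zrsr2 (r = 0.997), and for G0s2 they were Ssr3 (r = 0.999), Zfp27 (r = 0.995) and Fam83a (r = 0.994). Fam83a (log2 fold change -3.54) passed edgeR's threshold, and Ctnna1, Zrsr2, Ssr3 and Zfp27 did not. For Lipe they were Ndufa10, Tm9sf4 and Cd300lb (r between 0.961 and 0.978), and for Hilpda they were Gpn1, Rab44 and Hdac10 (r between 0.985 and 0.989). The libraries share group and depth, and r is a description over 6 points.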

How the data were processed

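RNA-seq of eWAT from cachectic and control mice was analyzed, with 3 libraries in each group. Per the methods and the labels, the authors aligned filtered reads with Hisat2, obtained raw counts per gene with featureCounts 1.5.0-p3 and deposited these counts. The authors also deposited FPKM values, which were used only in alternatives. The submitters' processing notes name mm9, but 99.8% of the 54532 gene identifiers are found in GENCODE M21 (GRCm38), where 98.3% of those found lie at identical positions. The authors' table of DESeq2 1.16.1 fold changes and p-values, with 6 columns of per-sample values, was not used.

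The main test was that of edgeR 4.0.16 in R 4.3.3 (filterByExpr with a minimum count of 10, TMM, quasi-likelihood test without covariates, Benjamini-Hochberg adjustment over 16003 genes, threshold 0.05), which was checked on simulated data. The standard error is the log2 fold change divided by the square root of F. Single values were compared by exact permutation tests, with a pseudocount of 0.5 CPM or, for ratios, 0.5 counts. No source used here says that each library came from a different mouse, so p-values measure the spread between these libraries, which may be technical. No pair of libraries was near-identical. Control replicates 2 and 3 were the most alike, with a chi-square per gene between their counts of 13. The next closest pair, control replicates 1 and 3, had 48.35. The alternatives used other scalings and filters, the omission of each library, a block for the replicate number, DESeq2 1.42.0, and limma 3.58.1 either with voom or on log2 FPKM (pseudocount 1 or 0.1). The members and lists were chosen with earlier results of these data known. Named genes are the members, genes that overlap them, cell type markers, up to 2 genes in each direction with the smallest p-value among the called genes of each list, and the 3 genes most like each of 4 members. Some genes that this rule covers are not reported here. Any other gene is marked in the text as named after its value was seen.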

Additional observations from a re-analysis of the deposited data

How the results depend on the processing

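Pnpla3 and G0s2 kept their direction and an adjusted p-value under 0.05 in all 15 other settings, with log2 fold changes of -4.16 to -3.59 and -3.37 to -2.23. Pnpla2 kept its direction in all 15 (0.97 to 1.24, the range with each library left out) and its call in 11. It missed the threshold without control replicate 2, control replicate 3 or cachexia replicate 1, and with the replicate block (log2 fold change 1.07, adjusted p = 0.0584 from edgeR). The correlations of same-numbered deviations from the group means were -0.003, -0.011 and 0.008, and those of other numbers ran from -0.024 to 0.023. With 3 libraries in each group, these values cannot show whether the labels' numbers pair the libraries. The block changed no other call among the members, and it lowered the number of called genes from 2821 to 1881 and that of higher genes from 1440 to 913. With each library left out, 828 to 2339 genes were called (828 without control replicate 3 and 1312 without control replicate 2), with 382 to 1197 higher and 446 to 1142 lower, and the fits had 1 sample fewer in a group. Lipe, Mgll, Abhd5, Hilpda, Ces1d and Ces1f passed in none of the 15 settings. The sign turned for Mgll (-0.44 to 0.02 with each library left out), Ces1d (-0.04 to 0.78) and Ces1f (-0.80 to 0.30), and for the ratio of Mgll to Lipe, whose log2 difference lay between -0.18 and 0.10. With Adipoq alone in place of the adipocyte markers, the differences were -0.09 for Abhd5, -0.12 for Hilpda and -0.02 for Ces1d, against 0.64, 0.61 and 0.71 with the list. DESeq2 called 13 genes of lipolytic signaling and droplet proteins in place of 7, and 7 adipocyte markers in place of 3. The cause of these shifts was not tested. With 3 libraries in each group, the interval of Ces1f spans more than a log2 fold change of 1 in either direction.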
